A study of Mus musculus with 17 samples.

Results

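The genes described here are 81 genes of regulated secretion, chosen by symbol from the 23284 gene symbols of the deposited count tables. They are 17 synaptotagmins, 5 synaptotagmin-like proteins, 4 complexins, 15 syntaxins, 7 syntaxin-binding proteins, 7 VAMPs, 5 genes with a Snap symbol, 6 Rab3 and Rab27 GTPases, 3 SV2 glycoproteins, 3 synapsins, 4 Unc13 and 4 Rims genes, and synaptophysin (Syp). Membership rests on the symbol alone, though the choice was made with earlier results of these data known. RNA sequencing had been done on 17 mouse tumours, all labelled as neuroendocrine tumours of the pituitary, and the aim was to find genes regulated by Crebbp in such tumours. All 17 carried engineered alleles of Rb1, the retinoblastoma gene, and Trp53, the p53 gene. The label reads Rb1/Trp53 in 9 tumours and Rb1/Trp53/Crebbp in 8. Crebbp encodes a histone acetyltransferase that serves as coactivator for CREB and other transcription factors. The promoter of any Cre, the strain, age and sex of the mice, and the exons targeted in Crebbp, are not given in these sources. Whether each tumour is from its own mouse is not stated by the labels, and p-values therefore measure only the spread between these samples.

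Secretory cells store hormone or transmitter in vesicles that fuse with the plasma membrane when calcium enters. Fusion is driven by SNARE proteins: a VAMP on the vesicle zips up with a syntaxin and a SNAP-25 family protein on the plasma membrane, while syntaxin-binding proteins (Stxbp genes) hold and guide the syntaxin. Rab3 and Rab27 bring vesicles to the membrane, Rims and Munc13 proteins (Unc13 genes) dock and prime them, complexins clamp and assist the SNARE bundle, and synaptotagmins sense the calcium. Endocrine cells of the pituitary and calcitonin-producing C cells of the thyroid use the same proteins as neurons, with different members of each family.

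The 17 libraries held 8328297 to 28140755 counts on genes. They were handled as 2 sets defined from the counts and not by the study: 10 libraries with more Pomc than Calca counts (Pomc-high: 6 Rb1/Trp53, tumours T2 and T5 to T9, and 4 Rb1/Trp53/Crebbp, T5 to T8), and 7 with more Calca (Calca-high: Rb1/Trp53 T1, T3 and T4, and Rb1/Trp53/Crebbp T1 to T4). Pomc, the precursor of ACTH and of the melanocyte-stimulating hormones, stood at 93548 to 317814 CPM in the first set and at 3.58 to 64.3 in the second. Calca, the calcitonin gene, stood at 34464 to 176279 CPM in the Calca-high libraries. CPM are gene counts scaled to a common library size with edgeR's TMM factors. The label "pituitary" was checked against 2 markers of melanotroph cells, the transcription factors Tbx19 and Pax7. They were at 306 to 418 and 125 to 299 CPM in the Pomc-high libraries. In all 7 Calca-high ones they were under 1 CPM, and thyroglobulin (Tg) was at 902 to 16603 CPM. Of the full list of 10 melanotroph and corticotroph markers, 5 were under 1 CPM in the Calca-high Rb1/Trp53 libraries. In the Calca-high Rb1/Trp53/Crebbp libraries 3 were. The list still summed to 7224 to 8488 and 2149 to 2985 CPM in these 2 groups, against 97070 to 326832 CPM in the Pomc-high libraries. Crebbp itself was at 39.6 to 116 CPM in the Pomc-high Rb1/Trp53 and 42.8 to 62.4 in the Pomc-high Rb1/Trp53/Crebbp libraries (log2 difference -0.47 ± 0.23 SE, adjusted p = 0.239). In the Calca-high set it was at 48.2 to 55.5 and 67.4 to 93.4 CPM and was higher in the libraries labelled with the Crebbp allele (0.60 ± 0.12 SE, adjusted p = 0.00723). A count over the whole gene does not show whether exons were lost, so it does not check the label, and the libraries are called Crebbp-labelled throughout.

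All but 5 of the 81 genes could be tested in at least 1 comparison. Cplx3, Cplx4, Stx19 and Syt8 had too few counts, and Vamp7 had no count in any of the 17 libraries, which allows at most 0.114 to 0.383 CPM depending on depth (3 counts, counting error only). That bound holds only if reads of Vamp7 could be counted under this symbol, which the sources used here do not give. The filter on low counts left 74 members for the Pomc-high comparison and 75 for the Calca-high one. Together the members took 0.567 to 0.803% of all gene counts. Their summed level after TMM scaling spanned 6065 to 6956 CPM, with overlapping ranges in the 4 groups. The unscaled share did not overlap between the genotypes in the Calca-high set. It was 0.629 to 0.654% in the Rb1/Trp53 and 0.684 to 0.803% in the Crebbp-labelled libraries, where the TMM factors were 0.938 to 1.004 and 1.09 to 1.17.

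Within several families, some members had different levels in the 2 sets and others had overlapping ranges. The ranges of the sets did not overlap for 25 of the 76 members that passed the count filter over all libraries. A gene could pass that filter through 1 set alone. Unc13c was under the filter within the Calca-high set, and Syt10 and Stx11 were under it within the Pomc-high set. They therefore passed through the set where they are high. Of the 25, 15 were higher in the Pomc-high set, where 10.9% of all 15432 genes had such ranges, and 10 were higher in the Calca-high set, where 11.6% did. These shares are a description, since the sets were made from the counts, and no test was run between them. Among the synaptotagmins, Syt1, the fast sensor of neurons, was at 447 to 584 CPM in the Pomc-high libraries and at 2.15 to 89.1 in the Calca-high ones. Syt4 stood at 355 to 589.6 against 34.9 to 70.98 CPM and Syt5 at 83.6 to 138 against 4.52 to 27.9. Syt7, the high-affinity sensor of granule release, had the opposite order, with 45.6 to 94.9 CPM in the Pomc-high and 523 to 796 in the Calca-high libraries. Syt2, a close relative of Syt1, went the same way as Syt7 (0.255 to 3.72 against 19.7 to 86.4 CPM). Of the other synaptotagmins, the Calca-high set had more Syt6 (3.48 to 10.9 against 62.1 to 87.02 CPM), Syt12 (0.991 to 4.61 against 15.8 to 45.2) and Syt10 (0 to 1.46 against 2.26 to 16.8), each given as Pomc-high against Calca-high.

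Members of other families also separated the sets. Syntaxins and Unc13 genes did so in both directions, and several other families had only 1 such member. The ranges overlapped for 51 of the 76 members, among them all 6 tested VAMPs and Syp. Cplx2 was at 1276 to 1686 CPM in the Calca-high and 74.98 to 192 CPM in the Pomc-high libraries. The Rab27 effector Sytl4, known as granuphilin and found on hormone granules, was at 137 to 205 CPM in the Pomc-high libraries and at 4.80 to 13.8 in the Calca-high ones. Unc13c (3.85 to 14.96 against 0 to 0.211 CPM), Sv2b (51.4 to 82.6 against 0.502 to 13.5), Rab3b (103 to 167 against 10.5 to 49.6) and Stx1a (23.3 to 38.5 against 3.90 to 16.96) were also higher in the Pomc-high set. Each of these values separates all 10 libraries of one set from all 7 of the other. Stxbp5l, which encodes tomosyn-2, an inhibitor of SNARE assembly, was at 98.2 to 208 CPM in the Calca-high and 20.7 to 41.4 in the Pomc-high libraries, and Stx11 at 5.82 to 15.98 and 0.518 to 1.15. The remaining members without overlap were Sv2a, Rims4, Syt13, Syn1, Rab27a, Snap47 and Stx3, higher in the Pomc-high set, and Unc13d and Stx16, higher in the Calca-high set.

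**Figure D1:**
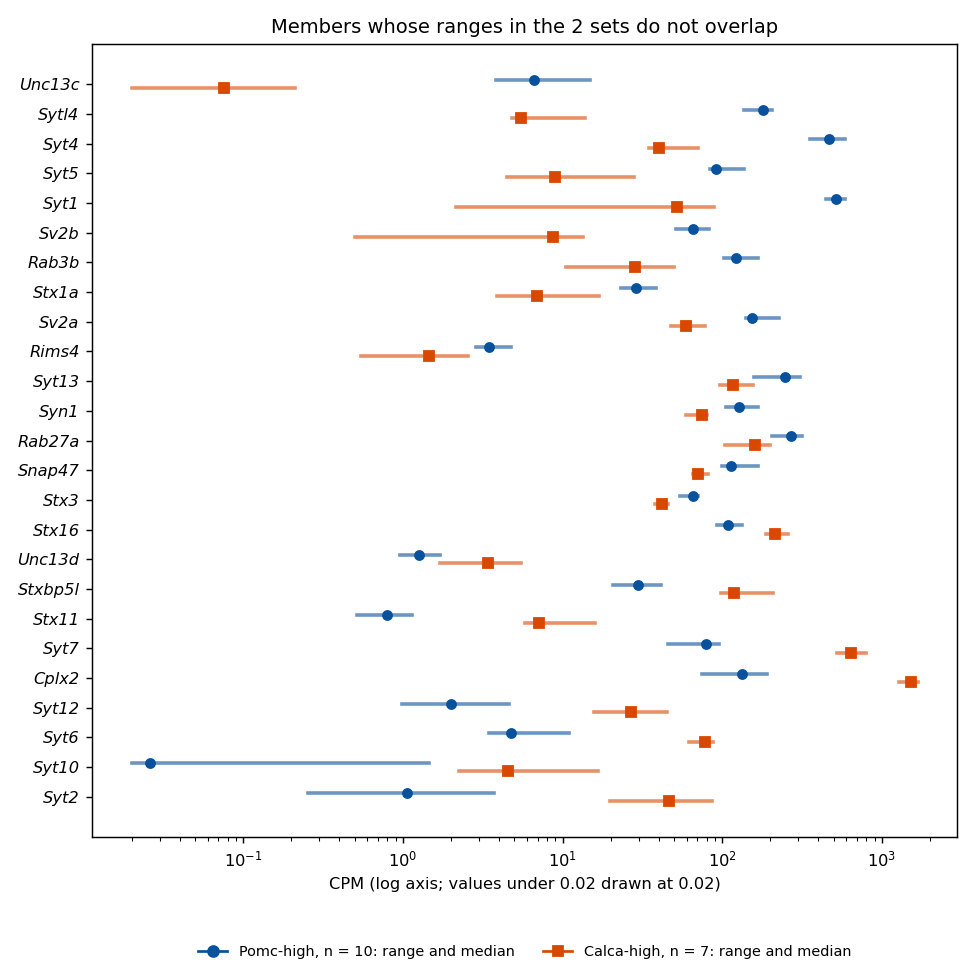
Range (line) and median (marker) of CPM on a log axis for the 25 members whose ranges in the 10 Pomc-high (circles) and 7 Calca-high (squares) libraries do not overlap, ordered by the log2 ratio of the medians after 0.1 CPM was added to each. Unc13c at the top is higher in the Pomc-high libraries, and Syt2 at the bottom is higher in the Calca-high ones. Unc13c, Syt10 and Stx11 were under the count filter within the set where they are low.

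Levels of different genes can be set side by side only per length, here as CPM per kilobase of merged exons (GENCODE M21, 79 members with a length). On that scale Snap25, the SNARE of the plasma membrane, led in the Pomc-high set with a median of 148, followed by Syp (130.4), Vamp2 (124), Syt4 (119.8) and Syt1 (107). In the Calca-high set Cplx2 led with a median of 309 CPM per kilobase, ahead of Snap25 (108), Syp (106), Syt7 (89.1) and Vamp2 (84.5). Snap25, Syp and Vamp2 were thus among the 5 highest members in both sets. The lengths are approximate, because the annotation behind the counts is not given in the sources used here.

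In the Pomc-high tumours, 10 of the 74 tested members differed between the genotypes at an adjusted p under 0.05 (13.5%), where 8.42% of all 14010 genes did. In the Crebbp-labelled tumours 4 rose (Syt16, Snap91, Rab3b, Cplx1) and 6 fell (Syt7, Syt13, Unc13a, Sytl3, Snap23, Rab27b). The calls came from the synaptotagmins (2 of 15 tested fell and 1 rose), the Rab group (1 of 6 rose and 1 fell), the Snap genes (1 of 5 rose and 1 fell), Unc13 (1 of 4 fell), the complexins (1 of 2 rose) and the synaptotagmin-like proteins (1 of 5 fell). None of the 13 syntaxins, 7 syntaxin-binding proteins, 6 VAMPs, 4 Rims, 3 SV2 genes and 3 synapsins passed edgeR's test; at an unadjusted p under 0.05 there were 1, 1, 1, 1, 0 and 1. The median log2 fold change over the members was 0.09, against 0.01 over all genes tested.

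Syt7 had the smallest adjusted p in this set. It was at 79.4, 82.8 and 94.9 CPM (lowest, median and highest) in the 6 Rb1/Trp53 libraries and at 51.1, 45.6, 53.9 and 55.9 CPM in Crebbp-labelled T5 to T8. All 4 Crebbp-labelled libraries lay below all 6 others, and the log2 fold change was -0.70 ± 0.09 (SE; adjusted p = 0.000576). Syt13, a synaptotagmin that lacks calcium-binding residues, was at 236, 288 and 308 CPM in the Rb1/Trp53 and 171, 198, 177 and 157 CPM in the Crebbp-labelled libraries. The groups did not overlap here either, and the log2 fold change was -0.64 ± 0.10 (adjusted p = 0.00223). Syt16, another member without calcium binding, was at 5.63, 6.54 and 8.29 CPM in the Rb1/Trp53 and 16.98, 10.1, 13.98 and 19.5 CPM in the Crebbp-labelled libraries, all 4 of which were above the other 6. Its log2 fold change was 1.18 ± 0.19 (adjusted p = 0.00296).

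Unc13a encodes Munc13-1, which primes docked vesicles for fusion. It was at 400.5, 429 and 521 CPM in the Rb1/Trp53 and 218, 302, 269.9 and 185 CPM in the Crebbp-labelled libraries, again without overlap (log2 fold change -0.84 ± 0.13, adjusted p = 0.00254). Sytl3 encodes a Rab27 effector and was low in this set, at 4.08, 5.08 and 8.76 CPM in the Rb1/Trp53 libraries and 1.48, 1.26, 2.20 and 1.29 CPM in the Crebbp-labelled ones. Its fold change, -1.87 ± 0.30 on the log2 scale (adjusted p = 0.00296), was the largest fall among the members. One of its Rab partners, Rab27b, was at 29.6, 44.7 and 75.9 CPM against 14.6, 24.04, 23.4 and 26.8 CPM (-1.16 ± 0.29, adjusted p = 0.0335). Snap23, the relative of Snap25 found in most cell types, was at 22.2, 26.8 and 32.6 against 17.9, 20.6, 19.4 and 18.8 CPM (-0.48 ± 0.11, adjusted p = 0.0196).

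Snap91 shares only its symbol with the SNARE genes: it encodes AP180, a clathrin assembly protein that retrieves vesicle membrane. It was at 71.2, 77.8 and 92.97 CPM in the Rb1/Trp53 libraries and at 96.6, 116, 103 and 143 CPM in the Crebbp-labelled ones (0.53 ± 0.12, adjusted p = 0.0136), with all 4 above the other 6. Rab3b was at 103, 115 and 126 against 164, 115, 156 and 167 CPM, where T6 lay inside the Rb1/Trp53 range (0.41 ± 0.11, adjusted p = 0.0335). Cplx1, a clamp of the SNARE bundle, was at 4.17, 5.75 and 6.89 CPM in the Rb1/Trp53 libraries and at 9.70, 9.32, 9.14 and 49.7 CPM in T5 to T8 (1.83 ± 0.49, adjusted p = 0.0446). T5 to T7 lay close together and above all 6 Rb1/Trp53 libraries, and T8 was far above them. Without T8 the log2 fold change of Cplx1 was 0.78 ± 0.19 (adjusted p = 0.0236).

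Crebbp-labelled T8 stood apart from the other Pomc-high libraries. It carried 813 CPM of summed oligodendrocyte markers (7 genes, of which Opalin was at 0 in all Pomc-high libraries), against 49.98 to 119.7 CPM in the other 9. Markers of pituicytes and astroglia (8 genes) summed to 629 CPM in T8 and 16.4 to 72.4 in the others, and those of brain neurons (12 genes) to 469.9 against 155 to 216. Syn2 and Snap25, which neurons also express, were high in the same library: Syn2 at 96.7 CPM against 23.1 to 32.8 in T5 to T7, and Snap25 at 435 against 279.6 to 304. In bulk tumour RNA, fewer cells of a type and less RNA per cell cannot be told apart. Without T8, 9 of the 10 members still passed and Rab3b did not (0.37 ± 0.12, adjusted p = 0.0622). Markers of other cells moved with the genotype in this set too: 2 of 7 endothelial markers fell, and their sum was 44.7 to 70.6 CPM in the Rb1/Trp53 and 16.7 to 42.8 CPM in the Crebbp-labelled libraries. Of 7 macrophage markers 1 fell (Cd68), with sums of 70.8 to 203 and 17.8 to 148 CPM. Falls also came in 2 of 9 tested melanotroph and corticotroph markers (Pcsk2 and Drd2), 1 of 7 general neuroendocrine markers (Chgb) and 1 of 3 tested thyroid follicle markers, and of 7 tested brain neuron markers 1 rose and 1 fell. Hormones and receptors of the neighbouring anterior lobe (8 genes) summed to 11.3 to 14249 and 47.9 to 2344 CPM. The part of these markers in the fall of Snap23, Sytl3 or any other member was not tested.

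**Figure D2:**
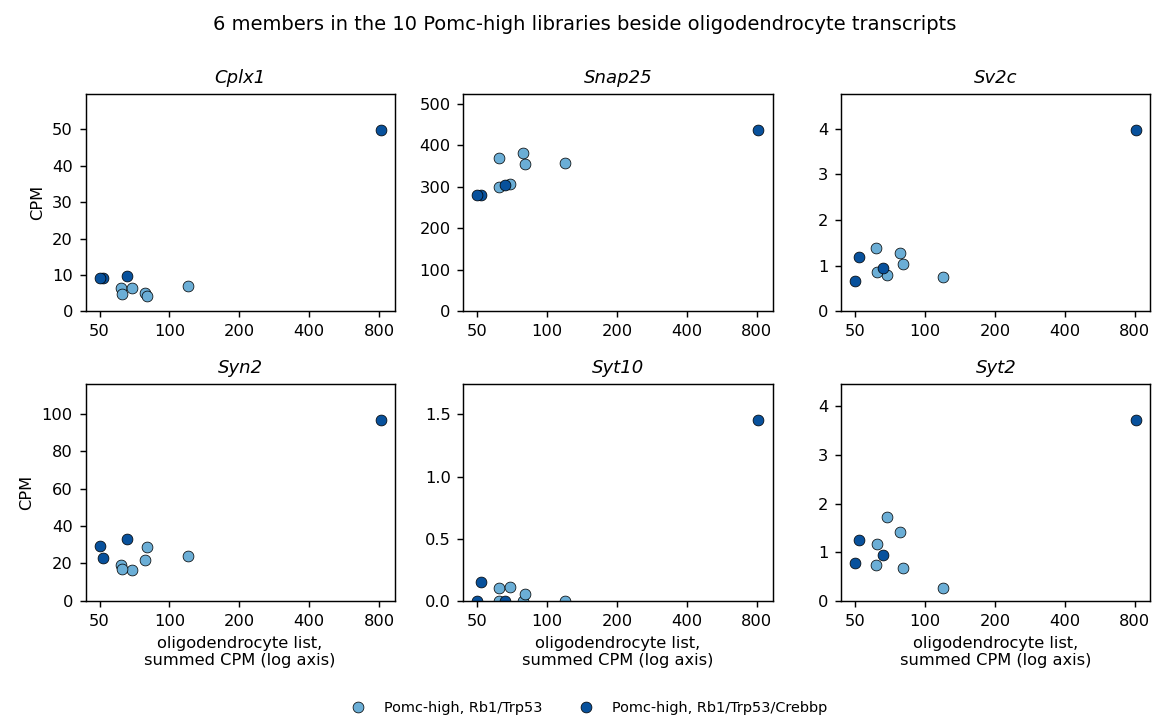
CPM of 6 members (y axes, linear from 0) in the 10 Pomc-high libraries against the summed CPM of 7 oligodendrocyte markers (x axes, log), light points Rb1/Trp53 and dark points Rb1/Trp53/Crebbp. The point at the far right of each panel is Crebbp-labelled T8, at 813 CPM of oligodendrocyte markers. It is the highest point for all 6 genes, for example 49.7 CPM for Cplx1. These 6 genes are the ones flagged because T8 stood far above the rest of its group, so its high place is largely set by their choice.

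Of the 10 calls, 6 held in all 10 fits with 1 library omitted (Snap91, Syt13, Syt16, Syt7, Sytl3, Unc13a). Cplx1 missed the threshold without any single one of the 6 Rb1/Trp53 libraries, and Rab27b without Rb1/Trp53 T2 or T9 or Crebbp-labelled T5, T6 or T7. Snap23 missed it without Crebbp-labelled T5 or T7, and Rab3b without Rb1/Trp53 T5, T6, T7 or T8 or Crebbp-labelled T5, T7 or T8.

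Of the core release genes, Cplx1 and Unc13a passed edgeR's test in the Pomc-high set and the others did not. Snap25 was at 301, 356 and 381 CPM in the Rb1/Trp53 and 304, 279.9, 279.6 and 435 CPM in the Crebbp-labelled libraries (-0.07 ± 0.13, adjusted p = 0.8). Vamp2, the vesicle SNARE, gave 0.21 ± 0.10 (adjusted p = 0.211) and Stx1a 0.23 ± 0.13 (adjusted p = 0.312). Syt1 was at 447 to 535 and 501 to 584 CPM in the 2 genotypes (0.12 ± 0.09, adjusted p = 0.435). Syp, a vesicle membrane protein used as a neuroendocrine marker, gave 0.29 ± 0.12 (adjusted p = 0.151), Syn1 0.22 ± 0.11, Sv2a 0.13 ± 0.13, Rab27a -0.20 ± 0.10 and Rims2 0.01 ± 0.12, with adjusted p of 0.238, 0.555, 0.238 and 0.978. The nearest to the threshold were Rab3a (0.38 ± 0.13, adjusted p = 0.0787), Cplx2 (0.49 ± 0.16, adjusted p = 0.0788) and Rims1 (1.28 ± 0.44, adjusted p = 0.0873), and T8 was the highest library for all 3. Without T8 they were 0.24 ± 0.10, 0.40 ± 0.16 and 0.49 ± 0.32 (adjusted p = 0.173, 0.151 and 0.384). DESeq2 called Rab3a and Cplx2 (adjusted p = 0.0351 and 0.0324). A p above the threshold does not show that the levels were alike.

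**Figure D3:**
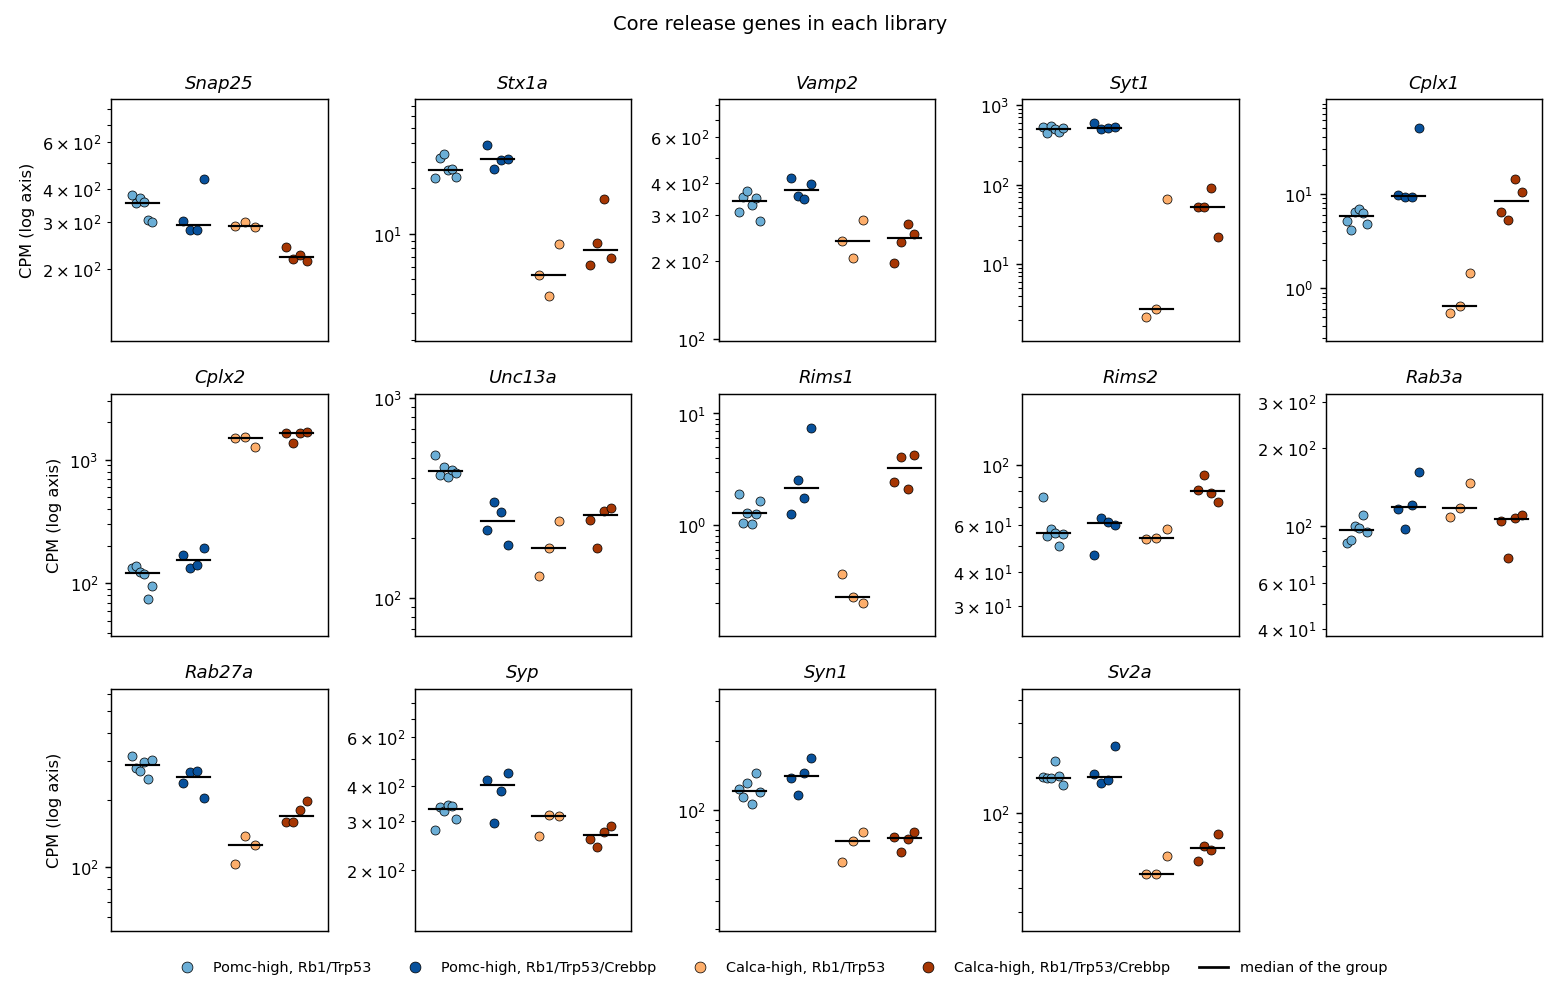
CPM (log axes) of 14 core release genes in each library, from left to right in each panel Pomc-high Rb1/Trp53 (6 libraries), Pomc-high Rb1/Trp53/Crebbp (4), Calca-high Rb1/Trp53 (3) and Calca-high Rb1/Trp53/Crebbp (4), with a bar at each median. Unc13a separates the genotypes in the Pomc-high set, Cplx1 in both sets, and Snap25, Rims1, Rims2 and Rab27a in the Calca-high set.

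In the Calca-high tumours 30 of the 75 tested members differed between the genotypes (40%), beside 36.2% of all 14797 genes, so the members' share lay near that of the genome. In the Crebbp-labelled tumours 15 rose and 15 fell, and the median log2 fold change was 0.01 against -0.02 over all genes tested. Rises came in 3 of 4 Rims genes (Rims1, Rims2, Rims4), 2 of 3 SV2 genes (Sv2b, Sv2c) and 2 of 6 Rab genes (Rab27a, Rab27b), and no other member of these families passed. Falls came in 3 of 6 VAMPs (Vamp4, Vamp5, Vamp8), 3 of 5 synaptotagmin-like proteins (Sytl1, Sytl3, Sytl4), 3 of 14 syntaxins (Stx5a, Stx7, Stx8), Syn2, Unc13b and Stxbp5l. Among the synaptotagmins Syt2, Syt10, Syt11 and Syt14 rose and Syt3 and Syt7 fell.

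The largest rises were those of Rims1, Cplx1, Sv2c and Sv2b, all at a few CPM or less in the Rb1/Trp53 libraries. Rims1, a scaffold that ties vesicles to calcium channels, was at 0.365, 0.227 and 0.201 CPM in Rb1/Trp53 T1, T3 and T4 and at 2.43, 4.03, 2.11 and 4.27 CPM in Crebbp-labelled T1 to T4 (3.59 ± 0.44, adjusted p = 0.00157). Cplx1 was at 0.548, 0.644 and 1.46 CPM and 6.34, 5.26, 14.2 and 10.3 CPM (3.38 ± 0.50, adjusted p = 0.00252). For both genes every Crebbp-labelled library was above every Rb1/Trp53 one. Sv2c, a vesicle glycoprotein, was at 1.10, 0.568 and 2.41 against 3.70, 9.78, 11.6 and 11.5 CPM (2.79 ± 0.57, adjusted p = 0.00828), and Sv2b at 4.20, 1.36 and 0.502 against 8.66, 10.8, 11.3 and 13.5 CPM (2.46 ± 0.61, adjusted p = 0.0171). Rims2 was at 53.05, 53.7 and 57.9 against 81.02, 91.5, 78.5 and 72.8 CPM (0.57 ± 0.10, adjusted p = 0.00415), and Rims4 at 0.548, 0.795 and 0.953 against 1.48, 1.47, 1.92 and 2.55 CPM (1.29 ± 0.35, adjusted p = 0.0238). The groups did not overlap for any of these genes. Without Rb1/Trp53 T1 the value of Sv2b was 3.54 ± 0.43, and without T4 that of Sv2c was 3.48 ± 0.56 (adjusted p = 0.00405 and 0.00462).

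Among the synaptotagmins, Syt2 was at 19.7, 23.9 and 20.2 CPM in the Rb1/Trp53 and 46.7, 62.9, 86.4 and 78.4 CPM in the Crebbp-labelled libraries (1.70 ± 0.21, adjusted p = 0.00162). Syt14 was at 2.01, 2.50 and 2.31 against 5.07, 7.03, 12.9 and 7.64 CPM (1.85 ± 0.33, adjusted p = 0.00494). Syt10 rose by 1.79 ± 0.44 and Syt11, which lacks calcium binding, by 1.38 ± 0.40 (adjusted p = 0.0163 and 0.0312). Syt7, the most abundant of the tested synaptotagmins per length in this set, went the other way, from 710.3, 751 and 796 CPM in the Rb1/Trp53 libraries to 605, 523, 570.2 and 641 CPM in the Crebbp-labelled ones (-0.35 ± 0.10, adjusted p = 0.0297). Its groups did not overlap. Syt3 was at 21.6, 24.5 and 29.4 against 16.8, 13.2, 16.6 and 19.3 CPM (-0.60 ± 0.16, adjusted p = 0.0197).

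Of the SNAREs, Snap25 was at 289.8, 301 and 288 CPM in the Rb1/Trp53 and 241, 218, 226 and 213 CPM in the Crebbp-labelled libraries, a small difference with no overlap (-0.37 ± 0.08, adjusted p = 0.0106). Several SNAREs of other membranes fell as well: Vamp8, of endosomes and secretory granules (-0.44 ± 0.09, adjusted p = 0.0065), Stx5a, of the Golgi (-0.37 ± 0.08, adjusted p = 0.0087), Stx8 and Stx7, of late endosomes (-0.55 ± 0.14 and -0.26 ± 0.09, adjusted p = 0.0172 and 0.049), and Vamp4, of the trans-Golgi network (-0.25 ± 0.08, adjusted p = 0.0375). Vamp5, first known from muscle, was at 5.52, 4.58 and 6.62 against 3.49, 2.99, 1.79 and 3.20 CPM (-0.95 ± 0.28, adjusted p = 0.032). Stxbp5l, the tomosyn-2 gene, was at 183, 208 and 190.1 CPM in the Rb1/Trp53 and 119, 112, 98.2 and 103 CPM in the Crebbp-labelled libraries (-0.83 ± 0.10, adjusted p = 0.00138).

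The Rab27 system moved in both directions. Rab27a was at 104, 139 and 126 against 159.6, 159.6, 179.7 and 198 CPM (0.52 ± 0.12, adjusted p = 0.0148) and Rab27b at 12.5, 14.7 and 4.67 against 22.9, 38.4, 18.6 and 25.1 CPM (1.31 ± 0.41, adjusted p = 0.0402), both higher in every Crebbp-labelled library. Of their effectors, Sytl3 was at 32.8, 23.5 and 20.4 against 9.08, 8.07, 8.13 and 7.41 CPM (-1.64 ± 0.18, adjusted p = 0.00118), which was the smallest adjusted p of any member in this set. Sytl4 was at 11, 8.60 and 13.8 against 5.18, 5.50, 5.12 and 4.80 CPM (-1.10 ± 0.19, adjusted p = 0.00475) and Sytl1 at 159.9, 139 and 121 against 101, 86.96, 82.9 and 99.8 CPM (-0.59 ± 0.12, adjusted p = 0.00841). All 3 were lower in every Crebbp-labelled library, while Sytl5 rose (1.65 ± 0.33, adjusted p = 0.00755). Syn2, which tethers vesicles to one another, was at 32.7, 25.98 and 25.3 against 15.8, 15.9, 14.5 and 17.3 CPM (-0.80 ± 0.13, adjusted p = 0.00322), Unc13b fell (-0.42 ± 0.10, adjusted p = 0.0122) and Snap91 rose by 0.52 ± 0.09 (adjusted p = 0.00498).

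Of the 14 core genes plotted by library, 9 did not pass edgeR's test in the Calca-high set. Vamp2 gave 0.00 ± 0.15, Syn1 0.08 ± 0.12, Syp -0.15 ± 0.10 and Cplx2 0.15 ± 0.13, with adjusted p of 1, 0.642, 0.269 and 0.37. Stx1a gave 0.73 ± 0.41, Rab3a -0.30 ± 0.15, Sv2a 0.37 ± 0.13 and Unc13a 0.44 ± 0.23 (adjusted p = 0.195, 0.152, 0.0531 and 0.167). Sv2a passed with DESeq2 and limma-voom (adjusted p = 0.0352 and 0.0487). Syt1 had by far the widest spread: it was at 2.15, 2.73 and 65.8 CPM in Rb1/Trp53 T1, T3 and T4 and at 52.3, 52, 89.1 and 21.8 CPM in the Crebbp-labelled libraries (1.22 ± 1.22, adjusted p = 0.469). T4 alone among the Rb1/Trp53 libraries lay inside the Crebbp-labelled range. The same library was the highest of its group for Syt5 (4.52, 5.19 and 27.9 CPM), Syt16 (2.15, 2.61 and 15.9 CPM) and Syt11 (22.2, 31.2 and 69.8 CPM). Without T4, Syt1 passed at 4.46 ± 0.67 (adjusted p = 0.00596) and Syt16 at 2.29 ± 0.23 (adjusted p = 0.00114), and Syt11 was at 1.99 ± 0.28 (adjusted p = 0.00361). Rab3c, Snap23, Stxbp3a, Sv2a, Syt5, Syt13 and Unc13a passed without it as well, and Stx7, Syt7, Vamp4 and Vamp5 no longer did. That made 35 member calls in all, beside 5312 of all 15042 genes.

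Of the 30 Calca-high calls, 20 held in each of the 7 fits without 1 library, among them Cplx1, Rab27a, Rims1, Rims2, Snap25, Snap91, Stx5a, Stxbp5l, Sv2c, Syn2, Syt10, Syt14, Syt2, Sytl1, Sytl3, Sytl4, Sytl5, Unc13b and Vamp8. Stx8, Sv2b and Syt3 missed the threshold without Rb1/Trp53 T3 alone. Rims4 and Syt11 missed it without Rb1/Trp53 T1 or T3 or Crebbp-labelled T3 or T4, and Rab27b without Rb1/Trp53 T1 or any of the 4 Crebbp-labelled libraries. Syt7 missed it without any of the 3 Rb1/Trp53 libraries or Crebbp-labelled T2 or T3, and Stx7, Vamp4 and Vamp5 in 6 of the 7 fits.

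Markers of other cells differed between the genotypes in the Calca-high set. All 6 thyroid follicle markers fell, and their sum was 2129 to 16886 CPM in the Rb1/Trp53 and 935 to 1306 CPM in the Crebbp-labelled libraries, with none at 0. All 4 tested fat cell markers fell, from a sum of 37.8 to 207 to 6.33 to 10.02 CPM, and of 6 tested lung epithelial markers 3 fell and Sftpb rose (0.97 ± 0.27, adjusted p = 0.0263), with sums of 209 to 357 against 73.97 to 106 CPM. Of the endothelial markers 4 of 7 fell (sums of 58.2 to 75.9 against 32.9 to 47.8 CPM), of the macrophage markers 3 of 7 (132 to 175 against 49.4 to 115 CPM) and of other immune markers both that were tested (19.7 to 48.7 against 4.92 to 13.3 CPM). General neuroendocrine markers (7 genes, 6 of which fell and 1 rose) summed to 23368 to 27703 against 10204 to 17241 CPM. Of the 6 tested C cell markers 5 fell, and the list summed to 118463 to 177465 against 35077 to 68066 CPM. Nearly all of that sum was Calca, the gene that defines the set, at 117217 to 176279 against 34464 to 67480 CPM. Markers of brain neurons summed to 17.7 to 25.5 against 19.4 to 22.9 CPM, with 9 of 12 under 1 CPM in every Rb1/Trp53 library and Slc32a1 and Avp at 0 there. Of the 5 tested, Gad1 (4.52 ± 0.93, adjusted p = 0.0085) and Nefm (2.50 ± 0.62, adjusted p = 0.0163) rose. Slc17a7 fell (-1.42 ± 0.35, adjusted p = 0.0169). Of 6 tested markers of pituicytes and astroglia, Aqp4 and S100b fell. Of 6 tested melanotroph and corticotroph markers, Pcsk1 and Pcsk2 fell and Crhr1 rose. The Rb1/Trp53 libraries were also deeper (20361712 to 28140755 counts against 8328297 to 15490074) and had fewer reads outside genes (15.9 to 16.5% against 18.5 to 21.7%). The part of these differences in the members' changes was not tested.

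The members that passed in both sets were 5, which is 50% of the Pomc-high and 16.7% of the Calca-high calls. Over all genes, 37.9% of the Pomc-high and 8.35% of the Calca-high calls passed in both. Cplx1 and Snap91 rose and Syt7 and Sytl3 fell in both the Pomc-high and the Calca-high tumours, while Rab27b fell in the former and rose in the latter. The log2 fold changes of Snap91 were 0.53 ± 0.12 and 0.52 ± 0.09 in the Pomc-high and Calca-high sets, and those of Sytl3 -1.87 ± 0.30 and -1.64 ± 0.18. With all 17 libraries in one fit and the set as a term, 16 of 76 members passed (21.1%), beside 18.0% of 14338 genes. Rises were seen in 10 (among them Cplx1, Rims1, Snap91, Sv2c, Syt2, Syt10, Syt11, Syt16, Sytl5) and falls in 6 (Snap23, Stx5a, Syt7, Syt13, Sytl3, Unc13b). The smallest adjusted p was that of Sytl3, whose log2 fold change was -1.78 ± 0.18 (adjusted p = 1.69e-05). Of the 16, 12 held in all 17 fits with 1 library omitted. Sv2c missed the threshold without Rb1/Trp53 T1 or T3 or Crebbp-labelled T8, Sytl5 without Rb1/Trp53 T3 or T4, and Syt16 without Rb1/Trp53 T3, T7, T8 or T9 or Crebbp-labelled T3 or T8. Syt10 was under the count filter in 3 of the fits.

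**Figure D4:**
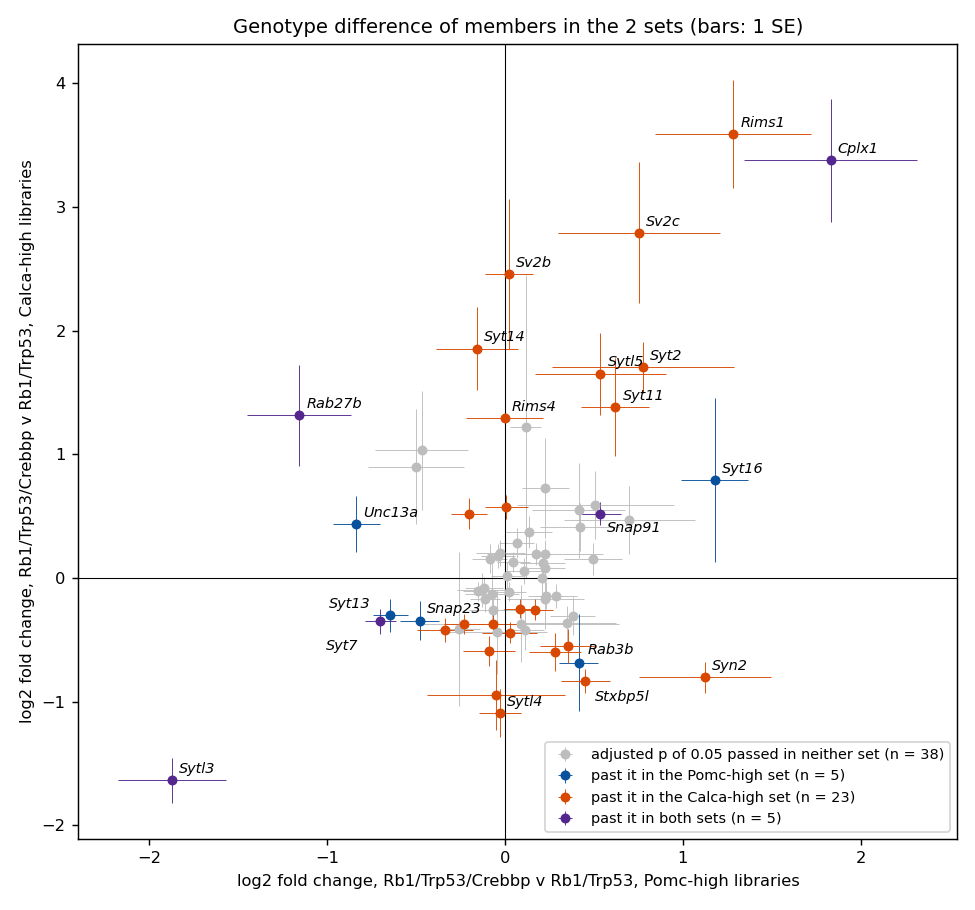
Log2 fold change of Rb1/Trp53/Crebbp over Rb1/Trp53 in the Pomc-high (x axis, 6 against 4 libraries) and Calca-high sets (y axis, 3 against 4) for 71 members tested in both, with bars of 1 SE and colours for where the adjusted p was under 0.05. Sytl3 lies low on both axes, Cplx1 high on both, and Rab27b has opposite signs.

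The test of the difference itself, an interaction of genotype and set, called 17 of 76 members (22.4%), beside 22.9% of 15432 genes. The contrast was Calca-high minus Pomc-high, and 8 values were positive and 9 negative. On the positive side were Rab27b (2.48 ± 0.52, adjusted p = 0.00435), Unc13a (1.28 ± 0.27, adjusted p = 0.00365), Rab27a (0.73 ± 0.16, adjusted p = 0.006), Rims1 (2.31 ± 0.70), Rims2, Rims4, Sv2b (2.45 ± 0.49, adjusted p = 0.00304) and Syt14 (2.02 ± 0.41, adjusted p = 0.00291). On the negative side stood Stxbp5l (-1.28 ± 0.18, adjusted p = 0.000357), Sytl4 (-1.06 ± 0.21, adjusted p = 0.00251), Stx8 (-0.90 ± 0.21, adjusted p = 0.00759) and Syn2 (-1.92 ± 0.47, adjusted p = 0.01), with Rab3a (-0.68 ± 0.21), Rab3b (-1.10 ± 0.37), Stx7, Syt3 and Vamp4. Without Crebbp-labelled T8, Syn2 was at -1.30 ± 0.24 (adjusted p = 0.00173) and Rims1 at 3.06 ± 0.53 (adjusted p = 0.00122), and without Rb1/Trp53 T1 Sv2b was at 3.45 ± 0.36 (adjusted p = 5.84e-05). Stxbp5l, with the smallest adjusted p of these, had log2 fold changes of 0.45 ± 0.14 (Pomc-high) and -0.83 ± 0.10 (Calca-high). For Unc13a they were -0.84 ± 0.13 and 0.44 ± 0.23. Cplx1 did not pass (1.56 ± 0.77, adjusted p = 0.149), nor did Snap91, Syt7 or Sytl3.

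**Figure D5:**
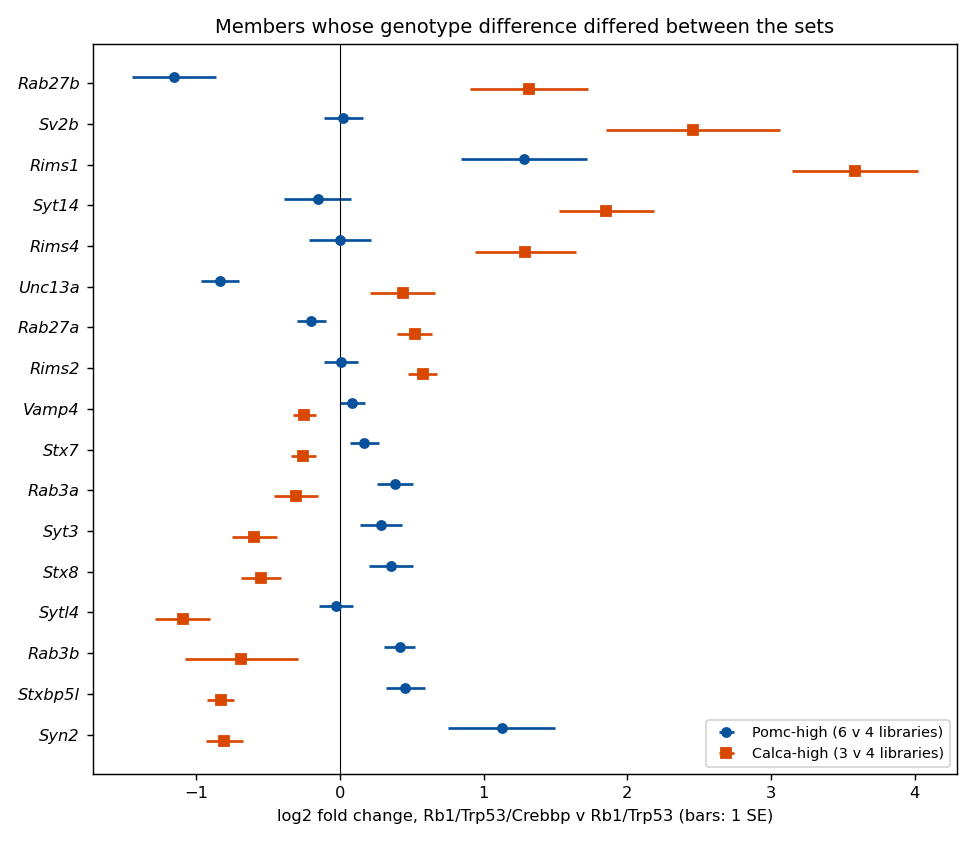
Log2 fold change of Rb1/Trp53/Crebbp over Rb1/Trp53 with 1 SE in the Pomc-high (circles) and Calca-high (squares) sets for the 17 members whose genotype difference differed between the sets. Rab27b at the top has -1.16 and 1.31, and Syn2 at the bottom has a positive value in the Pomc-high and a negative one in the Calca-high set.

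Of the 17 interaction calls, 10 held in every fit without 1 library (Rab27a, Rab27b, Stx8, Stxbp5l, Sv2b, Syn2, Syt14, Syt3, Sytl4, Unc13a). Rims1 missed the threshold without Rb1/Trp53 T3 or T4 or Crebbp-labelled T4, Rims4 without Rb1/Trp53 T1 or Crebbp-labelled T4, Rims2 and Stx7 in 6 fits each, Vamp4 in 9 and Rab3b in 12. Without Crebbp-labelled T8, the library with glial transcripts, 23 members passed, beside 3620 of all 15401 genes. Among those added were Cplx1 (2.56 ± 0.48, adjusted p = 0.00211), Sv2c, Syt2, Sytl1, Vamp3 and Vamp8, and Rab3b missed the threshold. Without Rb1/Trp53 T4, Syt1 passed at 4.36 ± 0.48 (adjusted p = 6.33e-05), as did Stxbp3a, Sv2c, Syt5, Syt11 and Syt16. Rab3a, Rab3b, Rims1, Stx7 and Vamp4 did not, and there were 18 member calls in all, beside 3105 of all 15697 genes.

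Crebbp acts with CREB, which binds the cAMP response element TGACGTCA and its core TGACG, and Rest, a repressor of neuronal genes, binds a longer element that holds TTCAGCACC. These letters were searched on both strands in RefSeq promoter windows (GRCm38.p6, 250 bases before to 50 after a start), which gave 78 windows for 61 of the members. The full element was in 1.28% of the members' windows and 1.79% of all 32851 windows, and was found at 1 member, Syn1. TGACG, which the full element contains, was in 23.1% of the members' and 20.8% of all windows. TTCAGCACC was in the windows of Syn1 and Unc13a, 2.56% of the members' windows against 0.371% of all. The windows of 4 members are given, 5′ to 3′ on the gene's strand, with these letters or their reverse complement in capitals. They are Cplx1 and Sytl3, the members that rose and fell most among those called in both sets (chr5:108549978-108550277, minus strand, and chr17:6658809-6659108, plus strand), Unc13a, which fell in the Pomc-high set (chr8:71671708-71672007, minus strand), and Syn1, a core gene that passed in neither (chrX:20920869-20921168, minus strand).
Cplx1: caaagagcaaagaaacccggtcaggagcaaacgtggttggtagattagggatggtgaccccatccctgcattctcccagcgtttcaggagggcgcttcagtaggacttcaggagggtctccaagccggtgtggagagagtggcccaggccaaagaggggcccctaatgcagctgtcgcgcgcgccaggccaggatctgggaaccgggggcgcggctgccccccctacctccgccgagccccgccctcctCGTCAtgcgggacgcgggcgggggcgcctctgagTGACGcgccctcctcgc
Sytl3: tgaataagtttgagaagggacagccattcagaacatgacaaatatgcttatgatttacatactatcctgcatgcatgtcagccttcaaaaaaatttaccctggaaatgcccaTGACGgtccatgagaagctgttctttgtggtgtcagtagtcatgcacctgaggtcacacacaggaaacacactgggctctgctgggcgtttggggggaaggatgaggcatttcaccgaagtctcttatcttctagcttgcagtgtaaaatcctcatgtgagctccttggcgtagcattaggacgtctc
Unc13a: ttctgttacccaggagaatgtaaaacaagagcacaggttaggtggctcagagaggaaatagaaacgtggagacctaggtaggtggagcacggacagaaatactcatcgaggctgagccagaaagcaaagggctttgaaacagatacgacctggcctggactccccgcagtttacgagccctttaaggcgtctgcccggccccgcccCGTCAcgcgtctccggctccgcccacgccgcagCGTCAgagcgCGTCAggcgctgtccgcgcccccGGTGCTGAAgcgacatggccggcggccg
Syn1: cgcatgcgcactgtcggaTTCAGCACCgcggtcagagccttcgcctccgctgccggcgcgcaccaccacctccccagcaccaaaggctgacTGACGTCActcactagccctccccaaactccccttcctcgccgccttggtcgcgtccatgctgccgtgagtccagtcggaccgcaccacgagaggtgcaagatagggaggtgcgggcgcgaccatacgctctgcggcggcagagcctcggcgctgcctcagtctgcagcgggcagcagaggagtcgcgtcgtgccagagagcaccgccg
A match of letters is a description of the window and does not show a bound site.

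Other genes of the vesicle cycle, a list of 90 chosen by role, were counted in the same fits. In the Pomc-high set 9 of 84 tested passed (10.7%, beside 8.42% of all genes), 6 up and 3 down. Sh3gl3, an endophilin of vesicle endocytosis (2.09 ± 0.19, adjusted p = 0.000116), and the vesicle membrane proteins Syngr3 (1.78 ± 0.29, adjusted p = 0.00454) and Syngr1 (1.74 ± 0.37, adjusted p = 0.0183) rose, as did Scamp5. Madd, an exchange factor that activates Rab3 (-0.64 ± 0.10, adjusted p = 0.00252), Slc17a7, the vesicular glutamate transporter VGLUT1 (-1.28 ± 0.24, adjusted p = 0.00702), and Scamp1 fell.

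In the Calca-high set 41 of the 85 tested passed (48.2%, beside 36.2%), 27 up and 14 down. The active-zone protein Bsn (1.26 ± 0.12, adjusted p = 0.000982), the endocytic adaptor Amph (0.90 ± 0.10, adjusted p = 0.00118), the calcium sensor Doc2b (2.51 ± 0.28, adjusted p = 0.00126) and Dmxl2 (0.74 ± 0.09, adjusted p = 0.0016) rose. Napa, the alpha-SNAP gene whose protein takes used SNARE bundles apart with NSF (-0.59 ± 0.09, adjusted p = 0.00299), Scamp2, Scamp4 and Slc18a1, a vesicular monoamine transporter (-1.75 ± 0.33, adjusted p = 0.00581), fell. With the set as a term 25 of 83 passed (30.1%, beside 18.0%), 14 up and 11 down. The interaction called 24 of 88 (27.3%, beside 22.9%), among them Ppfia2 (3.63 ± 0.43, adjusted p = 0.00012), Amph, Doc2b and Lin7a on the positive side and Sh3gl3 (-2.20 ± 0.38, adjusted p = 0.0012), Scamp2, Snapin and Use1 on the negative side.

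Within each set the members whose levels ranked the libraries most alike were listed by Spearman's rho, as a description over libraries that share genotype and depth differences. In the 10 Pomc-high libraries Snap25 was most like Sytl2 (0.81), Unc13c (0.79) and Vamp1 (0.68), and Syt7 was most like Unc13a (0.88), Snap23 (0.87) and Rab27b (0.83), which all fell with it. In the 7 Calca-high libraries Snap25 was most like Sytl3 (0.96), Stx4a (0.93) and Stx8 (0.89), and Sytl3 was most like Stx4a and Snap25 (0.96 each) and Vamp1 (0.86).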

How the data were processed

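The authors deposited raw counts per gene, 1 table for each of 17 tumours, each with 23284 symbols plus 5 summary rows, which were left out of every step. Per the submitters' processing notes, which give them no roles, HTSeq 0.6.1, TopHat2 2.0.12 and bcl2fastq 1.8.2 were used, with mm9 as the build. No annotation or strand setting is given in the sources used here, and overlapping or antisense genes cannot be told from a partner. The summary row of reads outside genes held 11.7 to 21.7% and that of reads not aligned uniquely 8.20 to 18.5% of a table. Genes held 64.5 to 78.3%, and the depth on genes was 8328297 to 28140755 counts per library, so 1 CPM rests on few reads in the shallowest.

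Members were taken by symbol patterns, and members, lists, sets and tests were chosen with earlier results of these data known. In R 4.3.3, edgeR 4.0.16 (filterByExpr, TMM, robust quasi-likelihood F test) was fitted across all genes within each set, over all 17 libraries with a term for the set, and with the interaction of genotype and set. P-values were adjusted by Benjamini-Hochberg over all genes tested, and under 0.05 counts as passing. Fold changes compare Rb1/Trp53/Crebbp with Rb1/Trp53. Their SE was taken as the size of the log2 fold change over the root of F. The fits were tested on simulated data. In the 30 pairs of libraries of 1 genotype and set, none looked alike (chi-square per degree of freedom of at least 8.30).

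Named are 14 core genes, all members past the threshold in a test with a mean of at least 1 CPM, up to 8 members per direction with set ranges that do not overlap (the others of these are listed), up to 4 called genes per direction of the 90 further genes, and Pomc, Calca and Crebbp. Rab3c, Stxbp3a, Syt5, Vamp3 and Tg, Tbx19 and Pax7 were added to the names with their values known. A further 2 members are counted but not reported here by name. Alternatives were DESeq2 1.42.0, limma 3.58.1 (voom), other scalings and filters, the tumour number as a block, and each library left out. Merged exon lengths came from GENCODE M21 and promoter windows from RefSeq for GRCm38.p6, where 61 members matched. Figures were drawn with matplotlib 3.10.9.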

Additional observations from a re-analysis of the deposited data

Results flagged for a closer look

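In groups of 4 to 6 libraries, 126 sets of values (42 core or called members) were examined for a single library far from the rest, and 9 were flagged (7.14%), where chance flags about 1 in 20. Of these, 6 were values of Crebbp-labelled T8 in the Pomc-high set: Cplx1 at 49.7 CPM, Snap25 at 435, Sv2c at 3.96, Syn2 at 96.7, Syt10 at 1.46 and Syt2 at 3.72. The other 3 of that group spanned 0.660 to 1.18 CPM for Sv2c, 0.771 to 1.26 for Syt2 and 0 to 0.148 for Syt10. The remaining values were Rims2 at 76.1 CPM in Pomc-high Rb1/Trp53 T2, Sv2a at 190.5 CPM in Pomc-high Rb1/Trp53 T7, and Rab3a at 75.2 CPM in Calca-high Crebbp-labelled T2, which was the lowest of its group.

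The genotype difference of 17 members differed between the sets by edgeR's test of the interaction. The differences, Calca-high minus Pomc-high on the log2 scale, were 2.48 for Rab27b, 2.45 for Sv2b, 2.31 for Rims1, 2.02 for Syt14, 1.30 for Rims4, 1.28 for Unc13a, 0.73 for Rab27a and 0.57 for Rims2. On the negative side they were -1.92 for Syn2, -1.28 for Stxbp5l, -1.10 for Rab3b, -1.06 for Sytl4, -0.90 for Stx8, -0.87 for Syt3, -0.68 for Rab3a, -0.42 for Stx7 and -0.33 for Vamp4. Of these, Rab27b was past the threshold in opposite directions in the 2 sets.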

How the results depend on the processing

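Gene calls were followed through the alternatives, with direction compared for values past the threshold in at least 1 of the 2 fits. DESeq2's size factors, upper-quartile scaling and a filter of at least 1 CPM kept all 71 calls of named members in the 4 comparisons, DESeq2 and limma-voom 70, quality weights 69 and no filter on low counts 63. With the tumour number as a block 34 of the 71 calls were kept, and the count of members past the threshold moved by over 1.5 times in all 4 comparisons (counts below). It moved as far in the interaction with quality weights (27 for 17), and without the set term in the fit over all libraries (6 for 16). Over all genes these counts were 4601 for 3531 and 554 for 2575. Syt7 no longer fell without the set term (0.045, adjusted p = 0.982), as its level differs between the sets. With 1 library left out the counts were 7 to 13 in the Pomc-high set, 22 to 35 in the Calca-high set, 12 to 19 over all libraries and 13 to 23 for the interaction. Over all genes the same fits gave 752 to 1214, 3588 to 5312, 1811 to 3196 and 2487 to 3849 calls. Tumour numbers are shared by the genotypes. The deviations of same-numbered tumours of a set had an r of -0.16 to 0.22 over genes, and 1 of 7 was closest to its own number. Whether same-numbered tumours share anything beyond the number is not given by the labels. With the number as a replicate block, 5, 17, 6 and 7 members passed in the Pomc-high, Calca-high, all-library and interaction fits, for 10, 30, 16 and 17 without it. Over all genes there were 354, 2700, 627 and 1253 calls with the block, for 1179, 5355, 2575 and 3531 without it. Depth limits the low members: Rims1, Sv2c, Syt10 and Unc13c rest on few counts in one set.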
